A study of Mus musculus with 7 samples.

Results

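The Ugt2b genes encode UDP-glucuronosyltransferases, enzymes of the endoplasmic reticulum that join glucuronic acid to steroids, bile acids and drugs. The members described here are the 7 genes Ugt2b34, Ugt2b1, Ugt2b35, Ugt2b36, Ugt2b5, Ugt2b37 and Ugt2b38, each read by 1 probe, out of 16462 genes measured by 23574 probes. They were taken by gene symbol, and the family was chosen by its log ratios in these same livers, with the spread between livers and the genotype difference in view, so these values are a description and carry no test. The data are 2-colour arrays of liver RNA from 3 C3ar1-/- mice, whose deleted gene encodes the C3a receptor of the complement system, and from 4 wild-type littermates, all on a chow diet. Each array compared the liver of 1 mouse with a common reference, pooled from the livers of 6 wild-type mice, and dyes were swapped in the profiling. The labels name no sex, age or strain. The livers keep the numbers of their labels, 1 to 4 for the wild types and 2 to 4 for the knockouts.

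Values are log10 ratios of the liver to the pool, so a value of 0 means the level of the pool. That direction is likely, since each title names the pool first and the mouse second, but no source used here states it, nor whether the logarithm has base 10. A turned direction would turn every sign, and folds assume base 10. The medians of the 7 arrays lay between -0.0008 and 0.0139. The SD over probes was 0.0975 in knockout liver 2 and 0.0466 to 0.0676 in the others, so knockout liver 2 stands apart, and the genotype differences of the members are also given without it. Ratios carry no absolute level, so liver identity could not be checked by marker abundance. Which part of C3ar1 was deleted is not stated either, so its probe checks no label. The number of arrays limits the precision, and p-values measure the spread between these animals.

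Glucuronidation is the main route by which the liver makes fat-soluble compounds ready for bile and urine. The donor, UDP-glucuronic acid, is made in the cytosol from UDP-glucose by Ugdh, and the conjugates leave the hepatocyte through ABC transporters. Genes of the Ugt1a family share their last exons and differ in the first, while each Ugt2b enzyme comes from a gene of its own. The Ugt2b genes arose by duplication and lie side by side on mouse chromosome 5. In the GRCm38.p6 annotation their order is Ugt2b34, Ugt2b1, Ugt2b35, Ugt2b36, Ugt2b5, Ugt2b37, Ugt2a3 and Ugt2b38, and 6 of the 7 members run on the minus strand, Ugt2b35 being the exception. Such copies can share probe sequence, and no probe sequence was used here, so the signal of a probe may include a near-identical member.

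The stretches upstream of the genes were read because Ugt2b38 had values unlike those of Ugt2b37 and Ugt2b5, the members whose upstream sequence was most similar to its own. They come from RefSeq on GRCm38.p6, which held an entry for all 7 members, and cover the 250 bases before the annotated start. On the minus strand they are chr5:87424204-87424453 for Ugt2b38, chr5:87254789-87255038 for Ugt2b37 and chr5:87140341-87140590 for Ugt2b5. Capitals mark GTTA and TTAAC with any 4 bases between them, a pattern that keeps the outer letters of the HNF1 consensus and was picked after the sequences had been read. HNF1 factors are known to drive human UGT2B promoters.
Ugt2b38: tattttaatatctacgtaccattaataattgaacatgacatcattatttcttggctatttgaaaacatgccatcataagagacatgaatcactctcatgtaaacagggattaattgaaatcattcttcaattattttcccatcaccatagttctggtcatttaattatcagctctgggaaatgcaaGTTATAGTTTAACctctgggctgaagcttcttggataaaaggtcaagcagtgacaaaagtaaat
Ugt2b37: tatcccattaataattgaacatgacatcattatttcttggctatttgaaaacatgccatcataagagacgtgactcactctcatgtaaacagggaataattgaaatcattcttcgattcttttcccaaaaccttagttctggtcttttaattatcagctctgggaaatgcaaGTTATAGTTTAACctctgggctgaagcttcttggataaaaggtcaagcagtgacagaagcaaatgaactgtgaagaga
Ugt2b5: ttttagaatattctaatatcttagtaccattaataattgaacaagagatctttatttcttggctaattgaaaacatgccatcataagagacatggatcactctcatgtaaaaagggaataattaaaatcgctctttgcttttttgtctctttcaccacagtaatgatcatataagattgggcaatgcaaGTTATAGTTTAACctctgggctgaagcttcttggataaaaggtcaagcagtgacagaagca

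Ugt2b37 and Ugt2b38 shared 225 of these 250 bases in a global alignment, or 90%, with an unbroken shared run of 82 bases. Ugt2b5 and Ugt2b38 shared 84.8% and Ugt2b5 and Ugt2b37 80%, while the other 18 pairs of members shared 57.6% to 67.2%. These shares depend on where each start is annotated. The stretch in capitals ended 48 bases before it in Ugt2b5, 51 in Ugt2b38 and 65 in Ugt2b37. The share between unrelated windows was not measured. The pattern of GTTA, 4 bases and TTAAC, searched on both strands, was present upstream of all 7 members and in 0.170% of all promoter windows of this length (56 of 32851). It was absent upstream of the 3 Ugt2a genes. The pattern was picked after these sequences had been read, so its presence in all members is a description, and the 56 windows include theirs. The members are copies of one another, so their 7 matches are not independent of each other, and a match is not a measured binding site. The full consensus, GTTAAT and ATTAAC with 1 base between them, was upstream of 0 members and in 0.00913% of promoters. AGGTCA, a core hexamer of nuclear receptor sites, lay upstream of 5 members, namely Ugt2b35, Ugt2b36, Ugt2b5, Ugt2b37 and Ugt2b38, and in 14.0% of promoters. TTCNNNGAA, the spaced palindrome read by STAT factors, and TATAAA were upstream of 0 members and in 7.02% and 12.4% of promoters.

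The pattern ended 48 to 76 bases before the annotated start in the 7 members and read on the strand of the gene in each. The windows below hold it with 9 bases on either side, to show which inner letters differ between members. On GRCm38.p6 they lie at chr5:86906989-86907019 for Ugt2b34, chr5:86926571-86926601 for Ugt2b1, chr5:87000781-87000811 for Ugt2b35 (plus strand), chr5:87092598-87092628 for Ugt2b36, chr5:87140380-87140410 for Ugt2b5, chr5:87254845-87254875 for Ugt2b37 and chr5:87424246-87424276 for Ugt2b38.
Ugt2b34: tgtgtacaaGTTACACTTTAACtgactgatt
Ugt2b1: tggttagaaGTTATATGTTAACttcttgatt
Ugt2b35: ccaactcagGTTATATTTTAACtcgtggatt
Ugt2b36: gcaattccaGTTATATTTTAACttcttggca
Ugt2b5: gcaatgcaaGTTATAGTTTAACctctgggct
Ugt2b37: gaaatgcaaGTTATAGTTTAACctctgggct
Ugt2b38: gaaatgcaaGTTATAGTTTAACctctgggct

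Ugt2b38 varied most. It read -0.812, -0.499, 0.226 and -0.120 in wild-type livers 1 to 4 and -0.56, -0.585 and 0.425 in knockout livers 2 to 4. Wild-type liver 3 and knockout liver 4 were above the pool and the other 5 livers below it, and the genotypes overlapped. The highest and the lowest liver were 17.3-fold apart, with 10.9-fold between wild-type livers alone and 10.2-fold between knockout livers. Its SD over the 7 livers, 0.462, ranked 6 of 23574 probes, against a median SD of 0.0364 over all probes. Among wild types alone its SD of 0.451 ranked 7. In bulk liver RNA, fewer cells of a type and less RNA per cell cannot be told apart.

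**Figure D1:**
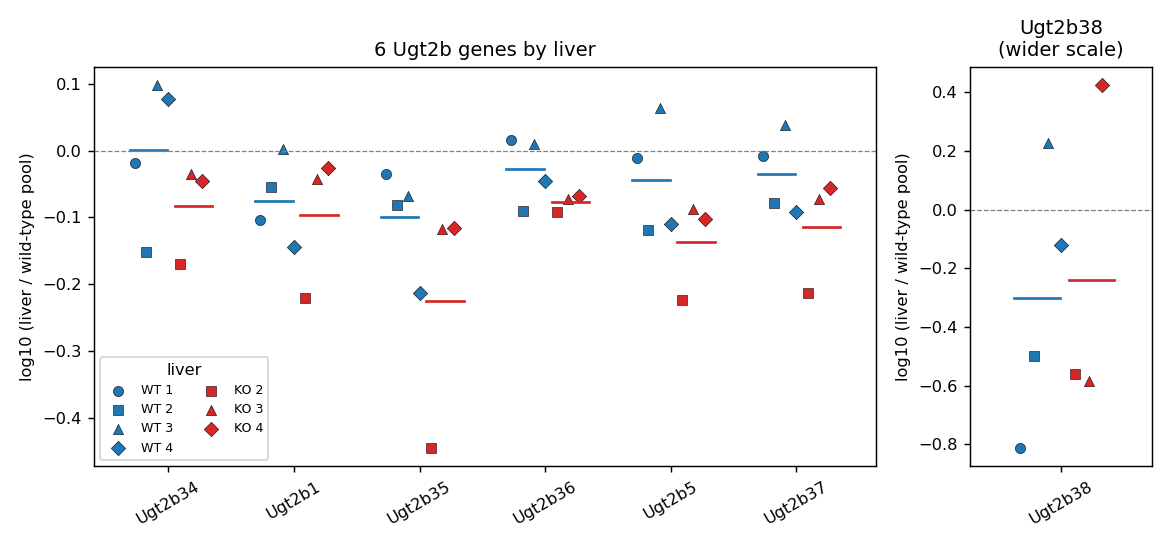
Log10 ratio of each liver to the wild-type pool for the 7 Ugt2b genes, with wild-type livers in blue, knockout livers in red and bars at the group means. Ugt2b38, on its own wider scale, spans -0.812 to 0.425, while the values of the 6 other genes lie between -0.444 and 0.0982.

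**Figure D2:**
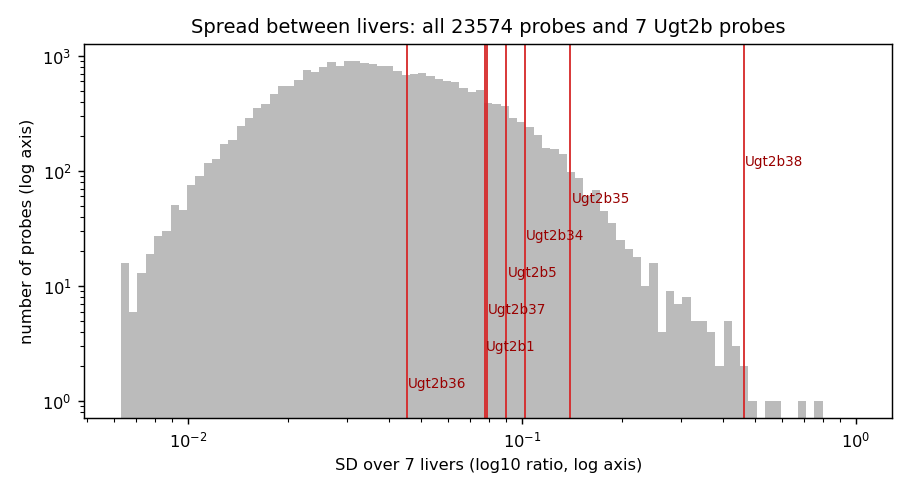
Distribution of the SD over 7 livers for all 23574 probes on log axes, with red lines at the 7 Ugt2b probes. Ugt2b38 at 0.462 lies in the far right tail and Ugt2b36 at 0.0452 near the bulk of the probes.

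The other 6 members moved within a narrower range and were mostly below the pool. Of their 42 values 35 were below 0, and in all 6 the 3 knockout livers were below the pool. Ugt2b35 had the next widest spread, with -0.035, -0.0815, -0.0677 and -0.213 in wild-type livers 1 to 4 and -0.444, -0.117 and -0.115 in knockout livers 2 to 4. It was below the pool in all 7 livers, and knockout liver 2 lay far below the rest. Its SD of 0.140 stood at percentile 98.0 of all probes.

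Ugt2b34 read -0.0189, -0.152, 0.0982 and 0.0774 in the wild types and -0.170, -0.0348 and -0.0458 in the knockouts. Its wild-type spread of 0.114 (SD, n = 4) exceeded that of the knockouts, 0.0749 (SD, n = 3), and wild-type livers 3 and 4 were the only ones above the pool. Ugt2b1, whose rat counterpart glucuronidates bisphenol A, read -0.104, -0.0542, 0.0021 and -0.144 in the wild types and -0.221, -0.0421 and -0.0264 in the knockouts. Knockout livers 3 and 4 lay among the higher values of Ugt2b1, next to wild-type livers 2 and 3.

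Ugt2b5 read -0.0105, -0.119, 0.063 and -0.110 in the wild types and -0.223, -0.087 and -0.102 in the knockouts. Ugt2b37 read -0.0075, -0.079, 0.0386 and -0.0913 in the wild types and -0.213, -0.0724 and -0.0553 in the knockouts. Both genes were highest in wild-type liver 3 and lowest in knockout liver 2, the genotypes overlapped, and both probes were within 0.0468 of each other in every liver. Ugt2b36 was the steadiest member, with 0.0163, -0.09, 0.0104 and -0.0458 in the wild types and -0.0921, -0.0725 and -0.0682 in the knockouts. Its SD of 0.0452 stood at percentile 62.6 of all probes, and its 3 knockout livers lay within 0.0239 of each other.

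Knockout liver 2 was the lowest liver in 6 of the 7 members, and in each of these 6 it lay below all wild types. It was the lowest liver in 18.7% of all probes, where wild-type liver 2 was the lowest in 22.7%, and the highest liver in 29.0%. After each array was scaled to the same median absolute value, it was the lowest in 2 of 7 members, Ugt2b35 and Ugt2b37. The part of the wide spread of that array in the low values was not tested further.

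Between genotypes, the knockout mean was below the wild-type mean in 6 of 7 members, as it was in 43.0% of all probes. The exception was Ugt2b38, at -0.240 ± 0.576 (SD, n = 3) in the knockouts and -0.301 ± 0.451 (SD, n = 4) in the wild types, a difference of 0.0613. Ugt2b35 had the widest difference, at -0.225 ± 0.190 against -0.0993 ± 0.0783, or -0.126 (1.34-fold). Ugt2b5 followed with -0.137 ± 0.0745 against -0.0442 ± 0.0868, a difference of -0.0931 (1.24-fold). The differences were -0.0847 for Ugt2b34, -0.0788 for Ugt2b37, -0.0503 for Ugt2b36 and -0.0214 for Ugt2b1.

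In 0 of 7 members did the 3 knockout livers lie apart from the 4 wild types, against 5.26% of all probes (2.54% lower and 2.71% higher in the knockouts), and in 4 of 7 the difference was smaller than the pooled SD between livers. Without knockout liver 2 the differences shrank to -0.0167 for Ugt2b35, -0.0504 for Ugt2b5, -0.0416 for Ugt2b34, -0.0291 for Ugt2b37 and -0.0431 for Ugt2b36, and turned to 0.0407 for Ugt2b1. The difference of Ugt2b38, 0.0613 over all livers, was 0.221 without knockout liver 2, 0.234 without knockout liver 3 and 0.237 once wild-type liver 3 was left out. It read -0.271 without knockout liver 4 and -0.109 once wild-type liver 1 was left out, so single livers set both its sign and its size. The mean over the 7 members was -0.0829 ± 0.0943 in the wild types and -0.139 ± 0.138 in the knockouts (SD), and the difference of -0.0562 became 0.0116 without knockout liver 2. With Ugt2b38 left out, a choice made after seeing the data, the mean difference was -0.0757, and -0.0233 without knockout liver 2.

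The members fell into unlike profiles across the livers. Among the 6 members other than Ugt2b38, the 15 pairs had a median Pearson r of 0.742 over the 7 livers, from 0.295 to 0.969. All pairs share the same arrays, and knockout liver 2 was low in these 6. When r was taken again without the 2 livers farthest from the median of the first gene of a pair, the median fell to 0.226 and 5 of the 15 pairs were below 0, down to -0.703 for Ugt2b34 and Ugt2b1, so that much of this likeness rests on those livers. Ugt2b5 and Ugt2b37 were the closest pair, with r = 0.969 and Spearman's rho = 0.929, and r = 0.925 without knockout liver 2 and wild-type liver 3, the livers farthest from the median of Ugt2b5. The pair Ugt2b35 and Ugt2b37 had r = 0.902, and 0.628 without knockout liver 2 and wild-type liver 4, while the pair Ugt2b1 and Ugt2b35 went from 0.833 to -0.525 when the same livers were left out. These correlations describe 7 livers and are given without a test.

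The r of Ugt2b38 with the 6 other members ran from 0.0836 for Ugt2b36 to 0.485 for Ugt2b1, with a median of 0.296, and overlapped the lower pairs among those 6. Without the 2 farthest livers of each pair it ran from -0.563 for Ugt2b5 to 0.819 for Ugt2b1, with 3 of 6 pairs below 0. With Ugt2b37, the member of the most similar upstream sequence printed above, r was 0.328 and rho 0.143, and r turned to -0.346 without knockout liver 2 and wild-type liver 3. In wild-type liver 1 Ugt2b37 read -0.0075 and Ugt2b38 -0.812, a gap of 6.38-fold. The gap between Ugt2b5 and Ugt2b38 in that liver was 6.34-fold.

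**Figure D3:**
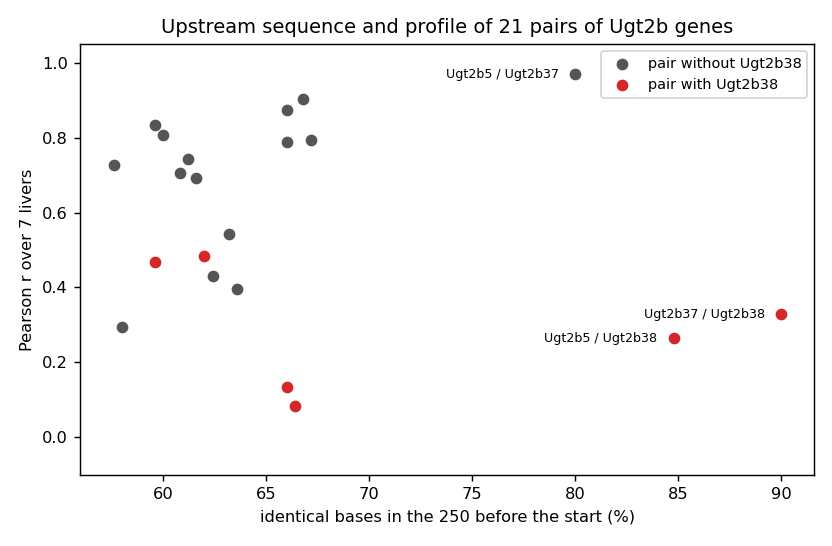
Share of identical bases in the 250 upstream of the start (%) against Pearson r over 7 livers for the 21 pairs of Ugt2b genes, pairs with Ugt2b38 in red. The 3 pairs at 80% to 90% identity split into Ugt2b5 with Ugt2b37 at r = 0.969 and the pairs with Ugt2b38 at 0.264 and 0.328.

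Liver genes known to be read more in one sex of mice were set beside Ugt2b38, since many conjugating enzymes of rodent liver differ by sex under the pattern of growth hormone. Both lists were chosen with earlier results of these data known. The mean of 17 probes of male-biased genes was -0.243, -0.129, 0.0425 and -0.0934 in wild-type livers 1 to 4 and -0.0800, -0.0420 and 0.0350 in knockout livers 2 to 4. It was highest in wild-type liver 3 and knockout liver 4 and lowest in wild-type liver 1, the livers in which Ugt2b38 was highest and lowest. Over the 7 livers r of this mean with Ugt2b38 was 0.828 and rho 0.643, and r was 0.515 with wild-type liver 3 and knockout liver 4 left out. Moxd1, of this list, read between -1.34 and -0.535 in all livers and lowers each mean. The list medians were -0.101, -0.0343, 0.0910 and 0.0093 in wild-type livers 1 to 4 and 0.0150, 0.0272 and 0.0507 in knockout livers 2 to 4. The 17 probes are of 16 genes, with 2 probes of Selenbp2. The r of single probes with Ugt2b38 had a median of 0.583. It was above 0 in 12 of the 17 probes, against 50.1% of all other probes. The 5 probes below 0 were those of Elovl3, Cyp4a12a, Cyp4a12b, Cyp2d9 and Cyp2j5, from -0.171 to -0.00268. The r of Slco1a1 went from 0.419 to -0.313 with wild-type liver 3 and knockout liver 4 left out.

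The mean of 19 probes of female-biased genes ran the other way, at 0.0843, 0.0354, -0.0808 and 0.00136 in the wild types and 0.0112, 0.0246 and -0.232 in the knockouts. With Ugt2b38 its r was -0.918 and rho -0.893, and r was -0.807 with wild-type liver 3 and knockout liver 4 left out. The 19 probes are of 16 genes, with 3 probes of Cyp3a41a and 2 of Ntrk2, and the mean is weighted to probes of wide range. The r of single probes with Ugt2b38 had a median of -0.590. It was below 0 in 17 of the 19 probes, against 49.9% of all other probes. Among genes picked after their values were seen, Cyp2b9, a female-biased cytochrome, read 0.272, 0.191, -0.557 and 0.0991 in the wild types and 0.0898, 0.278 and -0.579 in the knockouts. Cyp17a1, which encodes the steroid 17-hydroxylase, had r = -0.965 with Ugt2b38, and -0.959 without wild-type liver 3 and knockout liver 4. Hsd3b5, a male-biased steroid dehydrogenase, read -0.499, -0.331, 0.226 and 0.00660 in the wild types and -0.152, 0.142 and 0.285 in the knockouts. Knockout liver 3 was high in Hsd3b5 and low in Ugt2b38.

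**Figure D4:**
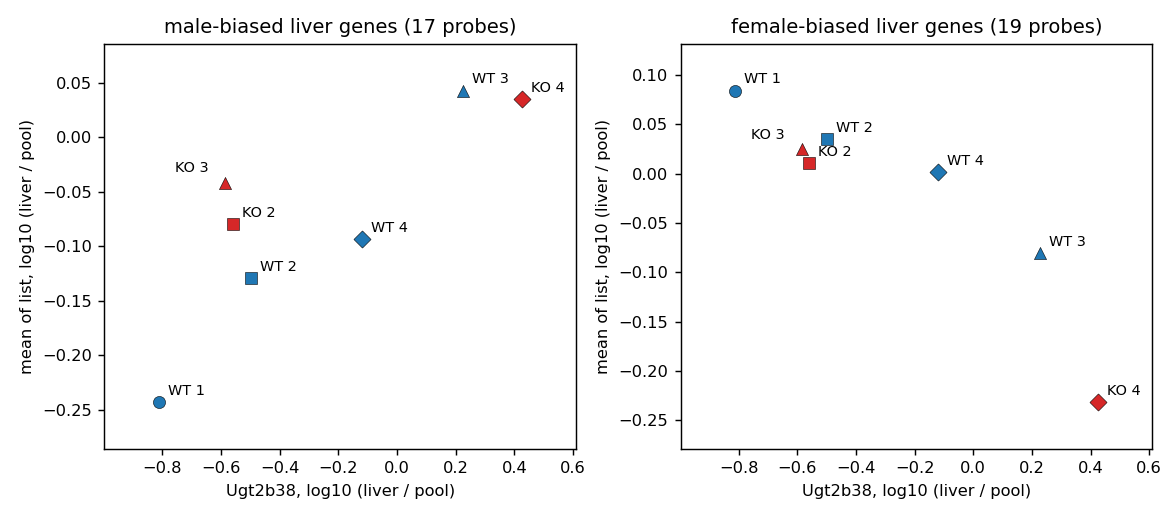
Ugt2b38 against the mean of 17 male-biased and of 19 female-biased probes in each liver, all as log10 ratios to the pool, wild types in blue and knockouts in red. Wild-type liver 3 and knockout liver 4, above 0 for Ugt2b38, have the highest male-biased and the lowest female-biased means.

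Cell type markers were read beside these values. The mean of 14 probes of 13 out of 14 hepatocyte genes lay between -0.0511 and 0.0938 in the wild types and between 0.0204 and 0.0857 in the knockouts. The mean of 14 probes of 12 out of 13 Kupffer cell and macrophage genes lay between -0.237 and -0.0564 in the wild types and between -0.152 and 0.115 in the knockouts. It was lowest in wild-type liver 3 and highest in knockout liver 4, the livers in which Ugt2b38 was highest. Hepatocyte markers read -0.0428 in wild-type liver 1, where Ugt2b38 was lowest, and 0.0204 in knockout liver 2. Of these probes, 13 of 14 hepatocyte and 13 of 14 Kupffer cell probes read higher in the knockouts, as did 57.0% of all probes, with 0 called. Endothelial markers read higher in 10 of 12 probes, and in 3 of these the groups did not overlap, against 2.71% of all probes. Endothelial, stellate, bile duct, lymphocyte and neutrophil means lay between -0.0845 and 0.105 in every liver. Log ratios have no true zero, so no marker could be called absent, and the part of cell makeup in the Ugt2b values was not tested.

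The genes whose values over the 7 livers were most like Ugt2b38, by Pearson r, were Slc66a2 (0.981), Cd248 (0.976), Kdelr2 (0.974), Nudt7 (0.962) and P4ha2 (0.955). Nudt7, a peroxisomal hydrolase of coenzyme A and a gene of the male-biased list, ranged over 3.04-fold, and the others over 1.28-fold to 1.86-fold. An r above 0.9 with Ugt2b38 occurred in 0.286% of the 17817 probes with 1 gene symbol outside the family. Most like the mean of all 7 members were Mgarp (0.977), Mrpl48 (0.973), Slc22a30 (0.970), Sema4b (0.968) and Gclc (0.966). Mrpl48 and Slc22a30 have 2 probes each, of which 1 is given. Gclc, the catalytic subunit of glutamate-cysteine ligase in glutathione synthesis, read -0.122, -0.209, -0.0156 and -0.123 in the wild types and -0.322, -0.187 and -0.0147 in the knockouts. That mean is weighted to Ugt2b38 by its wide range.

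Genes outside the family were tested for a genotype difference with limma over all 23574 probes. Of all probes 1 was called at an adjusted p of 0.05, or 0.00424%, that of A2ml1, which is in no list used here. Among the 144 probes of 9 lists around glucuronidation 0 were called in either direction, with 16 at an unadjusted p under 0.05, 3 higher and 13 lower in the knockouts. Over all probes 4.47% were at that level, 1.86% higher and 2.61% lower. The groups did not overlap in 11 of the 144 probes, 10 of them lower, against 5.26% and 2.54% of all probes. The lists were chosen with earlier results of these data known, so these shares are a description and carry no test. The adjusted p of the 36 list genes named below lay between 0.879 and 0.884 in limma, so their differences are given as values that did not pass. These 36 were the up to 4 genes of smallest p per list in this same fit, a choice that favours a stable sign. All 36 kept their sign when any 1 liver was left out, but 24 moved by over 1.5 times, 7 of them without knockout liver 2. The medians of all 9 lists moved by over 1.5 times without some liver, and 4 of them turned sign, as given beside each.

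Other UGT genes were measured for 7 of 15, and 6 read lower and 1 higher in the knockouts, with a median difference of -0.0364 against 0.00555 over all probes. It was -0.0183 without wild-type liver 1. Ugt1a10 read 0.0424, 0.0354, 0.0006 and 0.0131 in the wild types and -0.0241, -0.0348 and -0.0275 in the knockouts. All 3 knockouts of Ugt1a10 lay below all wild types, at a difference of -0.0517 ± 0.0177 (SE, limma, adjusted p = 0.884), but its probe may read exons shared by the Ugt1a genes. Ugt2a3, which lies between Ugt2b37 and Ugt2b38, differed by -0.143 ± 0.0566 (SE, limma, adjusted p = 0.884). Knockout livers 2 and 4 were low for Ugt2a3, at -0.223 and -0.203, while liver 3 read -0.0083, inside the wild-type range of -0.0692 to 0.0598. Ugt8a, the ceramide galactosyltransferase, and Ugt3a2 differed by -0.0515 and -0.0364.

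Supply and use of UDP-glucuronic acid was measured by 19 probes of 17 genes, 13 lower and 6 higher, with a median of -0.0134, which became 0.00375 when knockout liver 4 was left out and -0.0290 when wild-type liver 1 was. Ugdh, the UDP-glucose dehydrogenase that makes the donor of every UGT reaction, read 0.0254, 0.0288, -0.0135 and -0.0798 in the wild types and -0.274, -0.107 and -0.139 in the knockouts. The 3 knockouts lay below all 4 wild types, at a difference of -0.163 ± 0.0448 (SE, 1.46-fold), which did not pass (limma, adjusted p = 0.884). Without knockout liver 2 the difference was -0.113. Rgn, the gluconolactonase of the vitamin C branch, differed by -0.0891, Ugp2, which makes UDP-glucose, by -0.0849 and the nucleotidase gene Entpd5 by -0.0901. Without knockout liver 2 these were -0.0591, -0.0248 and -0.172, and without knockout liver 4 Entpd5 was at -0.0232.

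Sulfotransferases compete with UGT enzymes for phenols and steroids. Their list, which also holds genes of sulfate donor synthesis, read lower in 12 of 15 probes, with a median of -0.0452. That median became -0.0101 when knockout liver 4 was left out and -0.0166 when wild-type liver 2 was. Sult1b1, a phenol sulfotransferase that lies within 1 Mb of the Ugt2b genes, differed by -0.178 ± 0.0713 (SE, limma, adjusted p = 0.884), and by -0.101 without knockout liver 4. Sult1e1, the estrogen sulfotransferase in the same stretch, picked after its values were seen, read 0.204, 0.163, -0.188 and 0.00960 in the wild types and -0.054, 0.0302 and -0.249 in the knockouts. It was highest where Ugt2b38 was lowest and lowest in wild-type liver 3 and knockout liver 4, with r = -0.877 over the 7 livers and -0.495 without those 2 livers. Sult5a1 differed by 0.217 (0.106 without knockout liver 2), Sult3a1 by -0.0405 and Sult2a2 by -0.0374. Sult2a2 has 2 probes, of which that of smaller p is given, and their mean differed by -0.0226. In all, 27 probes of 25 other genes within 1 Mb were measured, 18 lower and 9 higher in the knockouts. Of these 0 were called in limma, against 0.00424% of all probes. Cenpc1, Ugt2a3 and Sult1b1, each lower, had an unadjusted p under 0.05, against 4.47% of all probes (2.61% lower). Prol1, next by p, differed by -0.0390 (limma, adjusted p = 0.884). The groups did not overlap in 2 of the 27 probes, lower in the knockouts and Prol1 among them, against 2.54% of all probes.

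Exporters of conjugates read lower in 6 of 9 probes, with a median of -0.0394, which became -0.0121 when wild-type liver 3 was left out and -0.0199 when knockout liver 4 was. The drug efflux pump Abcb1a differed by -0.244 ± 0.0983 (SE, limma, adjusted p = 0.884), and by -0.143 without knockout liver 4. Abcg2, Abcc1 and Abcc6 differed by -0.0651, -0.0513 and 0.0636. Enzymes of bilirubin and steroid substrates read lower in 10 of 16 probes, with a median of -0.0461. That median became -0.0186 when knockout liver 2, -0.0193 when wild-type liver 3 and -0.0797 when wild-type liver 2 was left out, and -0.0202 after quantile and -0.0198 after scale normalization. Akr1d1, the 5-beta-reductase of bile acid synthesis, differed by -0.192, Akr1c19 by -0.127, Hsd17b2, which inactivates estradiol and testosterone, by 0.106 and the heme oxygenase gene Hmox2 by 0.0653.

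Regulators of Ugt genes read higher in 12 of 21 probes, with a median of 0.00988, which became -0.0186 when knockout liver 2 was left out and -0.00207 when wild-type liver 2 was. The liver factor Foxa3 differed by 0.109, Nfe2l2, the regulator of antioxidant genes, by -0.0940, the dioxin receptor Ahr by -0.140 (-0.0696 without knockout liver 2) and Hnf4a by 0.0283. Targets of the receptors CAR, PXR and AhR and of Nrf2 read lower in 14 of 23 probes, with a median of -0.0218, which became 0.0122 when knockout liver 4 was left out and -0.0512 when knockout liver 3 was. Aldh1a7, a cytosolic aldehyde dehydrogenase, read 0.0451, 0.0675, 0.0411 and 0.0090 in the wild types and -0.0977, -0.0599 and -0.136 in the knockouts. All 3 knockouts lay below the wild types, at -0.138 ± 0.0240 (SE, 1.38-fold), which did not pass (limma, adjusted p = 0.879). Its relative Aldh1a1 differed by -0.116, Nqo1, a quinone reductase, by -0.121 (-0.0491 without knockout liver 4) and Cyp1b1 by 0.0427.

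The male-biased and female-biased lists had median differences of 0.0457 and -0.0616, with 0 called in either. The first was 0.0139 when wild-type liver 1 was left out and 0.104 when wild-type liver 3 was. Elovl3, Susd4, Moxd1 and Cyp2j5 of the first differed by 0.116, 0.125, 0.260 and -0.0785, and Moxd1 by 0.0419 without knockout liver 4. Hao2, Cyp2a4, Cyp3a16 and Cyp3a41a of the second differed by -0.195, -0.215, -0.0822 and -0.0592. Cyp3a41a has 3 probes, and the others differed by -0.0616 and -0.107. Without knockout liver 4 the median of the second list was 0.00758 and Cyp2a4 differed by -0.0676.

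**Figure D5:**
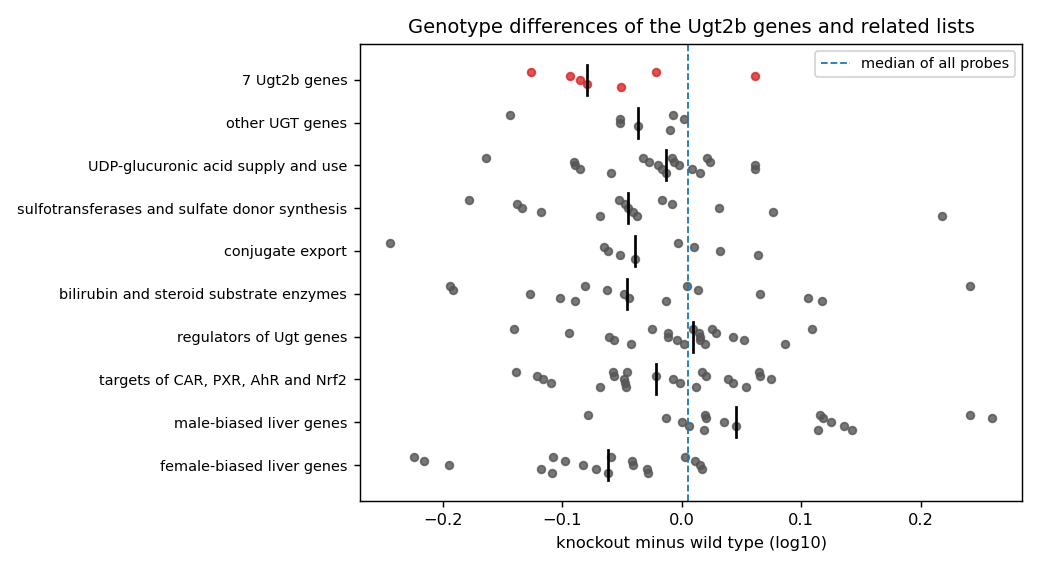
Knockout minus wild type (log10) for the 7 Ugt2b genes in red and for each probe of 9 related lists in grey, with black bars at the medians and a dashed line at the median of all probes. The Ugt2b genes lie between -0.126 and 0.0613, within the range of the lists around them.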

How the data were processed

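Values were the authors' deposited log10 ratios (base assumed) of 7 arrays, 1 liver each against a pool of 6 wild-type livers. Per the labels' protocols, RNA was spin-column purified with DNase, amplified and labelled by aminoallyl coupling with Cy3 and Cy5. No source used here states the scanner software, background correction, normalization or how swapped dyes were merged. The table had 0 unused value columns. Members and lists were chosen with earlier results of these data known.

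Symbols came from the platform annotation, updated by Entrez number or accession against GRCm38.p6 for 17724 and 21 probes. Array coordinates were not used here. limma 3.58.1 in R 4.3.3 (lmFit, eBayes, knockout minus wild type, two-sided) was run on all 23574 probes with Benjamini-Hochberg adjustment, and was tested on simulated data. It served only genes outside the family. Named genes were all members, up to 4 of smallest p per list, the 5 most alike by Pearson r, and up to 4 neighbours. Upstream sequences were aligned globally with Biopython 1.88 (match 1, mismatch -1, gap -2 and -0.5). The mice are separate animals per the labels. Same-numbered livers had deviations correlated at -0.137, -0.205 and -0.154. With so few livers per group these values cannot decide whether the numbers pair them. The main fit took no pairing, and a replicate block was run as an alternative. Array number limits precision.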

Additional observations from a re-analysis of the deposited data

Results flagged for a closer look

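Of 46 sets of 4 wild-type values examined, 2 held a liver far from the others, where chance flags about 1 in 20. For Susd4, in the male-biased list, wild-type liver 1 read -0.153 and the others 0.0980 to 0.101, so that the gap filled 0.988 of the range. For Cyp1b1 wild-type liver 1 read 0.0468 and the others -0.0257 to -0.0164, a gap of 0.872 of the range. No Ugt2b member met this measure, the highest being Ugt2b35 at 0.739.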

How the results depend on the processing

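The number of probes called over the whole table, 1 in limma, was 3 with the less variable probes left out, 0 after quantile normalization (834 at an unadjusted p under 0.05), 0 after scale normalization (863) and 0 with a replicate block (543). When single livers were left out it lay between 0 and 3 (0 without knockout liver 2, 3 or 4 or wild-type liver 3, 2 with wild-type liver 1 left out and 3 with wild-type liver 4 left out), with 659 to 1588 probes at an unadjusted p under 0.05. The lists around glucuronidation had 0 probes called under all 15 alternatives. The genotype difference of each Ugt2b member moved by less than its pooled SD between livers in all 15 alternatives. For many of them this was fixed in advance. Leaving out 1 liver from groups of 3 and 4 cannot move a difference that far. A robust eBayes, averaging of probes per gene and leaving out less variable probes cannot change the difference of a gene with 1 probe. The sign of the difference was the same in all 15 for Ugt2b34, Ugt2b35, Ugt2b36, Ugt2b5 and Ugt2b37. The replicate block gave the same member differences as leaving out wild-type liver 1, so the 15 are not separate checks. The difference turned sign in 5 alternatives for Ugt2b1 (-0.0564 to 0.0407) and in 5 for Ugt2b38 (-0.271 to 0.237), and the cause was not tested. Scale normalization moved Ugt2b35 from -0.126 to -0.0688 and Ugt2b38 from 0.0613 to 0.193, and array weights moved them to -0.0499 and -0.102. The mean over members lay between -0.127 and 0.0116 over its alternatives, and was -0.0748 with the replicate block. The 36 list genes passed the test under 0 alternatives and turned sign under 0, though single livers moved 24 of them by over 1.5 times. They had been picked by smallest p in the main fit, a choice that favours a stable sign. Medians over lists or over all probes moved by more than their spread between livers in 9 cases. Read as log2, the 17.3-fold range of Ugt2b38 would be 2.36-fold. Signal over background is unknown, so dim probes could not be set apart.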
